A study of Homo sapiens with 12 samples.

Results

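The 50 genes described here work at the start of S phase: they license and fire replication origins, copy the DNA, supply nucleotides and histones, or drive the G1/S transition. They were taken from a list of symbols, and all 50 were found among the 21207 genes of the deposited table by matching Ensembl identifiers to symbols. RNA was sequenced from HEYA8 cells, a long-established line of human ovarian cancer cells grown in culture. The cells received medium with no drug (the vehicle group, 0 µM) or with colforsin daropate at 1, 5 or 10 µM, and were harvested after 48 h. Each of the 4 groups had 3 libraries, called biological replicates in the design text. No transgene, deletion or second agent is named for any group, and 1 cell line is the whole model. Colforsin daropate is a water-soluble relative of forskolin, which activates adenylyl cyclase and so raises cyclic AMP. Sample titles carry p6, p8 or p11 once in every group. What that number stands for is not stated, so it is called the label number, and the genes are described within each number as well as over all libraries.

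Before S phase, the origin recognition complex with CDC6 and CDT1 loads the MCM2-7 ring onto DNA, and geminin holds CDT1 in check afterwards. CDC45 and the GINS complex then join the ring to make the moving helicase, polymerase alpha with primase starts each strand, and polymerases delta and epsilon extend it on the sliding clamp PCNA. Many of these genes are transcribed by E2F factors as cells pass from G1 into S phase, and cyclin E with CDK2 promotes that passage.

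Values were the authors' variance-stabilised expression values, which behave as log2 values for abundant genes and flatten towards a floor of 4.86 for rare ones. A difference therefore understates the change of a rare gene. Vehicle library 6 was the shallowest, with 24.0 megareads recovered on genes, while the remaining 11 libraries held 31.1 to 48.4 megareads, and all 50 members passed the filter on low values. The ovarian marker PAX8 lay between 12.5 and 13.6 and KRT8 between 13.1 and 14.5, but EPCAM and KRT19 stayed at 5.94 or lower. MUC16 was not found by symbol in the deposited table. At 10 µM, PAX8 rose by 0.70 and KRT7 by 1.13 (limma adjusted p = 0.0108 and 0.0368), KRT8 fell by 0.83 and KRT18 by 0.73 (0.00519 and 0.0288), and WT1 did not pass (0.129). Among mesenchymal markers, VIM fell by 0.93, whereas CDH2 rose by 1.30 and FN1 by 1.93 (limma adjusted p = 0.0239, 0.000759 and 0.000985). Of the immune markers, PTPRC and CD14 stayed at 5.91 or lower, and CD3E and ITGAM were not found by symbol in the deposited table. Among endothelial markers, PECAM1 lay between 5.57 and 7.39 and VWF between 6.83 and 8.05 (lower at 10 µM, -0.84, limma adjusted p = 0.00558), while CDH5 was 12.9 in vehicle library 6 and 10.9 and 10.8 in vehicle libraries 8 and 11. The fibroblast marker COL1A1 lay between 5.83 and 7.31 with vehicle and between 8.37 and 10.4 at 10 µM (limma adjusted p = 0.0218). DCN and LUM were not found by symbol in the deposited table. The part of these markers in the results below was not tested.

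At 10 µM, 32 of the 50 members fell against vehicle and 1 rose (limma, Benjamini-Hochberg adjusted p under 0.05 over 17767 genes). Over all tested genes 11.4% were called lower and 11.2% higher. The median difference of the members was -0.66, against 0 over all tested genes. The 32 included MCM2 to MCM7, the ring of the replicative helicase, 3 of 4 GINS subunits, PCNA and the licensing factors CDC6 and CDT1. The 1 that rose was CDK2, the kinase partner of cyclin E. In these bulk samples, fewer cells in S phase and less of each RNA per cell cannot be told apart.

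The size of the fall differed between label numbers. Library by library, the median of the 50 members in number 6 was 10.15, 10.1, 9.74 and 9.12 over the 4 doses in rising order. The same medians were 9.76, 9.84, 9.59 and 9.42 in number 8, and 9.66, 9.69, 9.48 and 9.35 in number 11. Number 6 was thus highest with vehicle and lowest at 10 µM. The median over all tested genes moved between 9.01 and 9.08 across the 12 libraries.

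**Figure D1:**
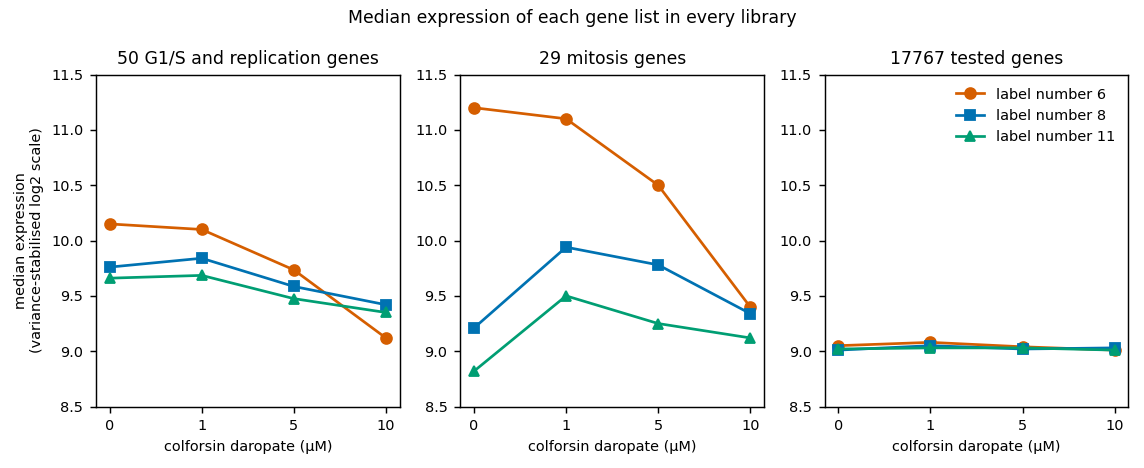
Median expression (y axis, variance-stabilised log2 scale) of the 50 members, of 29 mitosis genes and of the 17767 tested genes in each library, against dose (x axis, µM, equally spaced), with 1 line for each label number. The member median goes from 10.15 to 9.12 in number 6, while the all-gene median stays between 9.01 and 9.08.

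Set against vehicle within each number, 44 of 50 members were lower at 10 µM in all 3 numbers, compared with 27.5% of all tested genes. The 6 others were POLA2, RFC2, RPA2, RRM2, CDK2 and E2F2. At 5 µM 34 members were lower in all 3 numbers (25.9% of tested genes), and at 1 µM 4 were lower (22.1%) and 8 higher (21.4%). Without regard to number, every 10 µM library lay below every vehicle library for 39 members (16.8% of tested genes) and above for 1 (17%), while at 1 µM 2 lay below (8.77%) and 2 above (9.55%). The median difference at 10 µM was -1.18 in number 6 and -0.40 in both number 8 and number 11. In number 6, 29 members were lower by 1 or more, which held for 3.87% of tested genes.

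**Figure D2:**
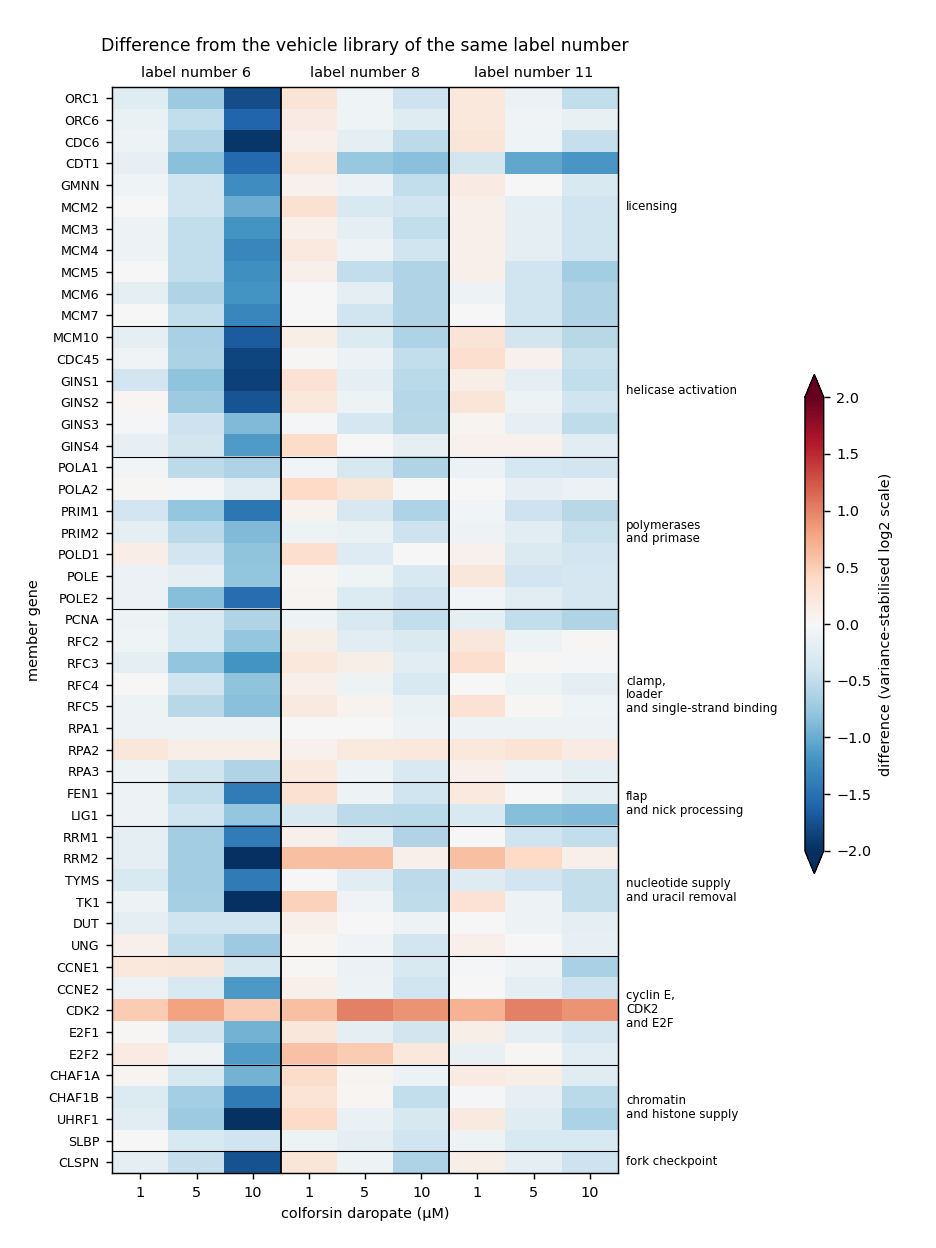
Difference of each member (rows, grouped by role) from vehicle within its own label number at 1, 5 and 10 µM (columns), on the variance-stabilised log2 scale, blue for lower and red for higher. Colours end at 2 in either direction, and RRM2 and TK1 in number 6 at 10 µM lie beyond that end. The 10 µM column of number 6 is the darkest blue, with a median of -1.18, CDK2 is red in all 9 columns, and most 1 µM columns of numbers 8 and 11 are pale red.

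Promoter sequences are shown for 4 members because most members moved together, E2F sites are known in many such genes, and the cyclic AMP response element is the classical element of the pathway this drug activates. RefSeq promoter windows (GRCh38.p14, 250 bases before to 50 after the start, the first window listed per gene) were matched for 43 of the 50 members. Both strands were searched for the E2F letters TTTCCCGC or TTTGGCGC, for the cyclic AMP response element TGACGTCA, for the shorter TGACG, which lies inside it, for CCAAT, and for the cell cycle element TTTGAA or TTCGAA. Printed below are the 250 bases before the start on the gene's strand, with E2F letters in capitals for the first 3 genes and TGACGTCA in capitals for MCM10. They lie at chr20:5126623-5126872 (PCNA, minus strand), chr16:88803539-88803788 (CDT1, plus strand), chr2:135876444-135876693 (MCM6, minus strand) and chr10:13161308-13161557 (MCM10, plus strand).
PCNA: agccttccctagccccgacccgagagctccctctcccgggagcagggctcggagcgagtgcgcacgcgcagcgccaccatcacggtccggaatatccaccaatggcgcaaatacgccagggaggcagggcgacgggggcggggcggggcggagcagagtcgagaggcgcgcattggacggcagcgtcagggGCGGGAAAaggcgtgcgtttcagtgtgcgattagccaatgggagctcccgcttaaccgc
CDT1: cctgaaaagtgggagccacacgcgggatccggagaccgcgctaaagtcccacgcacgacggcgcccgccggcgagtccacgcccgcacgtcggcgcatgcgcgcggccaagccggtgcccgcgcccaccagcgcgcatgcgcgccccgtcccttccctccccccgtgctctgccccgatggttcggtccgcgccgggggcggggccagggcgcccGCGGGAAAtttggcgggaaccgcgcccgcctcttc
MCM6: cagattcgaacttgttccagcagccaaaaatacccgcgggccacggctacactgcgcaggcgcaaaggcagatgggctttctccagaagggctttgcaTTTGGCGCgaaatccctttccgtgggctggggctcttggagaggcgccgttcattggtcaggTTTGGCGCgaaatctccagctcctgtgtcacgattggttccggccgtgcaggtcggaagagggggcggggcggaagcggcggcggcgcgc
MCM10: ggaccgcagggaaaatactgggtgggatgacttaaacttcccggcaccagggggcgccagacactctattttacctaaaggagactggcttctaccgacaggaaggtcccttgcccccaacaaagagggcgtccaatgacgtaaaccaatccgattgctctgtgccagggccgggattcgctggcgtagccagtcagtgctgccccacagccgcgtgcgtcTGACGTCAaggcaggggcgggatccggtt

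The E2F letters begin 59 bases before the start in PCNA, 35 bases before it in CDT1, and 152 and 90 bases before it in MCM6. In MCM10 the TGACGTCA begins 29 bases before the start. E2F letters were found in 19 of the 43 member promoters (44.2%) and in 3.6% of the promoters of 11641 tested genes. TGACGTCA was found in 2 of 43 (4.65%), MCM10 and RFC3, against 3.24% of tested genes. TGACG was found in 39.5% against 33.7%, CCAAT in 53.5% against 36.3%, and the cell cycle element in 4.65% against 11.6%. The promoters of 23 mitosis genes held the cell cycle element in 78.3% and E2F letters in 8.7%. These matches describe letters in a window and not bound sites.

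Among the 11 licensing genes, 9 fell at 10 µM (11.4% of tested genes were called lower), with a median difference of -0.80. ORC1 and ORC6, subunits of the origin recognition complex, were the other 2, with differences of -0.89 and -0.66 (limma adjusted p = 0.0559 and 0.121), and both passed with the label number as a block (0.00371 and 0.0271). CDT1, which brings the MCM ring to the origin, was 8.50, 8.33, 7.67 and 6.94 at 0, 1, 5 and 10 µM in number 6. It was 8.30, 8.51, 7.54 and 7.46 in number 8, and 8.33, 7.97, 7.29 and 7.17 in number 11. All libraries at 5 and 10 µM lay below all vehicle libraries, while 1 µM overlapped vehicle. The difference at 10 µM was -1.19 ± 0.17 (standard error, limma adjusted p = 0.000566). In recovered normalised counts, CDT1 went from 277 ± 25.2 to 95.3 ± 25.8 (SD, n = 3), a 2.91-fold lower mean.

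CDC6, the ATPase that loads the ring with CDT1, was 10.7, 10.6, 10.1 and 8.75 over the 4 doses in number 6. Number 8 gave 10.3, 10.4, 10.1 and 9.78, and number 11 gave 9.96, 10.2, 9.87 and 9.50. The 10 µM libraries lay below all vehicle libraries, with number 6 lowest by a wide margin, and the 5 µM libraries overlapped vehicle. CDC6 fell by 0.98 ± 0.24 (limma adjusted p = 0.0135). MCM2 to MCM7 fell by 0.60 to 0.84, with MCM5 at -0.84 ± 0.11 (limma adjusted p = 0.000463) and MCM6 at -0.80 ± 0.11 (limma adjusted p = 0.00049). GMNN, which encodes geminin, the inhibitor of CDT1, also fell (-0.68 ± 0.19, limma adjusted p = 0.0246).

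Helicase activation genes showed a median difference of -0.91, and 5 of 6 fell (11.4% of tested genes). GINS1, a subunit of the GINS complex, was 9.89, 9.51, 9.09 and 8.02 in number 6, then 9.01, 9.30, 8.82 and 8.47 in number 8, then 8.76, 8.89, 8.58 and 8.26 in number 11. MCM10, which helps the helicase start, was 9.49, 9.29, 8.84 and 7.83 in number 6, then 8.85, 8.97, 8.58 and 8.24 in number 8, then 8.54, 8.79, 8.17 and 7.99 in number 11. For both genes every 10 µM library lay below every vehicle library, and vehicle library 6 stood above the other vehicle libraries. GINS1 fell by 0.97 ± 0.26 (limma adjusted p = 0.0214) and MCM10 by 0.94 ± 0.24 (limma adjusted p = 0.0156). The GINS1 call was lost without 10 µM library 6 (adjusted p = 0.0785) or 10 µM library 11 (0.0542), and the MCM10 call without 10 µM library 6 (0.0585). CDC45 and GINS2 fell by 0.92 and 0.90, and GINS3 by 0.65. GINS4, at -0.52, did not pass (limma adjusted p = 0.0723, and 0.0162 with the label number as a block).

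Of the 7 polymerase and primase genes, POLA1, PRIM1, PRIM2 and POLD1 fell at 10 µM (11.4% of tested genes). With the block (19.7%) POLE and POLE2 passed as well. PRIM1, the catalytic primase subunit, was 9.39, 9, 8.61 and 7.94 in number 6, then 8.86, 8.93, 8.54 and 8.24 in number 8, then 8.80, 8.75, 8.38 and 8.24 in number 11. Its 5 and 10 µM libraries all lay below its vehicle libraries, and it fell by 0.88 ± 0.15 (limma adjusted p = 0.00216). POLE2, a polymerase epsilon subunit, was 8.46, 8.34, 7.61 and 6.94 in number 6, then 7.58, 7.63, 7.30 and 7.17 in number 8, then 7.39, 7.33, 7.18 and 7.06 in number 11. Vehicle library 6 stood well above the other vehicle libraries of POLE2, although no 10 µM library reached any vehicle library. Its difference of -0.75 ± 0.29 did not pass (limma adjusted p = 0.0821) and passed with the label number as a block (0.00893). POLA1, which encodes the catalytic subunit of polymerase alpha, fell by 0.52 ± 0.08 (limma adjusted p = 0.00132). POLA2, its partner subunit, differed by -0.11 ± 0.13 (limma adjusted p = 0.6).

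PCNA, the sliding clamp, followed nearly the same course in all 3 numbers. It was 12.2, 12.1, 11.9 and 11.6 in number 6, then 12.2, 12.1, 11.9 and 11.7 in number 8, then 12.3, 12.1, 11.8 and 11.7 in number 11. Each dose lay wholly below the dose before it. PCNA fell by 0.57 ± 0.06 at 10 µM (limma adjusted p = 0.000131), from 4760 ± 195 to 3195 ± 129 recovered normalised counts (SD, n = 3), and the difference without number 6 was -0.55. At these levels the deposited values are rounded to steps of 0.1, which limits the spread that can be seen.

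RFC3, a subunit of the clamp loader, was 10.7, 10.5, 9.91 and 9.50 in number 6, then 9.79, 10.0, 9.91 and 9.56 in number 8, then 9.62, 9.95, 9.65 and 9.59 in number 11. The 10 µM libraries lay below the vehicle libraries, but by 0.03 only in number 11. Its difference of -0.49 ± 0.24 did not pass (limma adjusted p = 0.167, and 0.0408 with the block). Over the 8 clamp, loader and RPA genes, which include the single-strand binding protein RPA, 3 fell (PCNA, RFC4 and RPA3). With the block 6 fell, which added RFC2, RFC3 and RFC5. The shares of tested genes called lower were 11.4% and 19.7%. The median difference of the 8 genes was -0.36. RPA1 and RPA2, the larger RPA subunits, differed by -0.10 ± 0.07 and 0.17 ± 0.11 and did not pass (limma adjusted p = 0.306 and 0.308). RPA2 stood above vehicle in all 3 numbers at each dose, with mean differences of 0.17, 0.20 and 0.17 at 1, 5 and 10 µM.

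LIG1, the ligase that seals nicks on the lagging strand, was 10.6, 10.5, 10.2 and 9.82 in number 6, then 10.3, 10.0, 9.78 and 9.76 in number 8, then 10.3, 10.0, 9.45 and 9.41 in number 11. All 5 and 10 µM libraries lay below all vehicle libraries, and all 3 numbers were already lower at 1 µM. LIG1 fell by 0.74 ± 0.20 (limma adjusted p = 0.0191), a call that was lost without vehicle library 6 (0.0518) or 10 µM library 11 (0.0734). FEN1, the nuclease that trims flaps before ligation, was 11.4, 11.3, 10.9 and 10.0 in number 6, then 10.7, 11, 10.6 and 10.3 in number 8, then 10.4, 10.6, 10.4 and 10.2 in number 11. The 10 µM libraries of FEN1 lay below its vehicle libraries, which spanned 10.4 to 11.4. FEN1 did not pass at -0.67 ± 0.24 (limma adjusted p = 0.0678), and passed with the block (0.00726) and without vehicle library 11 (0.0289). That library was the lowest vehicle library of FEN1, so leaving it out enlarges the difference by itself.

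Among the 6 genes for nucleotide supply and uracil removal, RRM1, TYMS and UNG fell (11.4% of tested genes). With the block (19.7%) TK1 and DUT passed as well. RRM1, the large subunit of ribonucleotide reductase, was 12.2, 12, 11.5 and 10.8 in number 6, then 11.5, 11.6, 11.3 and 10.9 in number 8, then 11.4, 11.4, 11 and 10.9 in number 11. The 3 numbers met within 0.1 at 10 µM after starting 0.8 apart, and RRM1 fell by 0.83 ± 0.21 (limma adjusted p = 0.0139). TK1, the thymidine salvage kinase of cycling cells, was 10.6, 10.5, 9.93 and 8.26 in number 6, then 9.43, 9.89, 9.36 and 8.92 in number 8, then 9.08, 9.37, 8.98 and 8.61 in number 11. All 10 µM libraries of TK1 lay below its vehicle libraries, whose own range was 1.52. The TK1 difference was -1.11 ± 0.39 (limma adjusted p = 0.0632, 0.00667 with the block and 0.0362 without vehicle library 11). Vehicle library 11 was the lowest vehicle library of TK1, so leaving it out enlarges the difference by itself.

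RRM2, the small ribonucleotide reductase subunit that limits the enzyme in S phase, did not follow its partner when set against vehicle. It was 12.5, 12.3, 11.8 and 10.2 in number 6, then 10.8, 11.4, 11.4 and 10.9 in number 8, then 10.5, 11.1, 10.9 and 10.6 in number 11. Number 6 dropped by 2.30 at 10 µM, while numbers 8 and 11 stood 0.1 above their vehicle libraries, and vehicle and 10 µM overlapped. RRM2 did not pass over all libraries (-0.70 ± 0.47, limma adjusted p = 0.317) and was singled out after its values were seen. From 1 to 10 µM it went down in all 3 numbers, and limma called it lower with the block but not without it.

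CDK2 ran against most other members and rose at every dose. It was 10.8, 11.3, 11.6 and 11.3 in number 6, then 10.5, 11.1, 11.5 and 11.4 in number 8, then 10.5, 11.2, 11.5 and 11.4 in number 11. Every treated library lay above every vehicle library, and the 5 µM library was the highest in each number. At 1 µM it exceeded vehicle by 0.60 ± 0.09 (limma adjusted p = 0.0075), at 5 µM by 0.93 ± 0.09 (8.55e-05) and at 10 µM by 0.77 ± 0.09 (0.000197). Recovered normalised counts went from 1502 ± 193 with vehicle to 2584 ± 104 at 10 µM (SD, n = 3), 1.72 times the vehicle mean. In GENCODE 29 an antisense gene, AC025162.1, covers 14.5% of the exonic bases of CDK2 and PMEL covers 2.29%, and whether the counting used strand is not stated.

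Cyclin E genes and E2F1 moved the other way from CDK2. CCNE2, a cyclin E that activates CDK2, was 10.7, 10.6, 10.4 and 9.55 in number 6, then 10.5, 10.6, 10.4 and 10.1 in number 8, then 10.3, 10.3, 10.1 and 9.89 in number 11. All 10 µM libraries lay below the vehicle libraries, most of all in number 6. CCNE2 fell by 0.65 ± 0.15 (limma adjusted p = 0.0104), and the difference was -0.41 without number 6 (0.0722). CCNE1, the other cyclin E, fell by 0.42 ± 0.13 (limma adjusted p = 0.0348) and E2F1, an activating E2F factor, by 0.55 ± 0.14 (limma adjusted p = 0.0131). E2F2, another activating E2F factor, lay between 5.78 and 7.07 and did not pass at -0.38 ± 0.29 (limma adjusted p = 0.396).

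Chromatin and histone supply genes fell in 3 of 4 cases (11.4% of tested genes). UHRF1, which recruits DNA methyltransferase to newly copied DNA, was 10.1, 9.87, 9.37 and 8.13 in number 6, then 9.34, 9.72, 9.20 and 9.02 in number 8, then 9.15, 9.33, 8.90 and 8.51 in number 11. CHAF1B, a subunit of the histone chaperone that works behind the fork, was 8.69, 8.41, 8.01 and 7.27 in number 6, then 8.19, 8.46, 8.23 and 7.70 in number 8, then 8.16, 8.14, 7.99 and 7.62 in number 11. For both, the 10 µM libraries lay below the vehicle libraries and number 6 was lowest. UHRF1 fell by 0.98 ± 0.27 (limma adjusted p = 0.0219), a call lost without vehicle library 6 (0.0577), 10 µM library 6 (0.0884) or 10 µM library 11 (0.0605). CHAF1B fell by 0.82 ± 0.17 (limma adjusted p = 0.00457). SLBP, which binds the stem-loop of histone mRNA, fell by 0.37 ± 0.10 (limma adjusted p = 0.022), and CHAF1A, at -0.43 ± 0.16, did not pass (0.0746, and 0.02 with the block).

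CLSPN, which encodes claspin, the adaptor of the replication checkpoint, was 10.0, 9.80, 9.54 and 8.26 in number 6, then 9.51, 9.75, 9.41 and 8.90 in number 8, then 9.22, 9.33, 9.03 and 8.80 in number 11. Its 10 µM libraries lay below its vehicle libraries. CLSPN fell by 0.92 ± 0.23 (limma adjusted p = 0.0129), and the call was lost without 10 µM library 6 (0.0527).

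**Figure D3:**
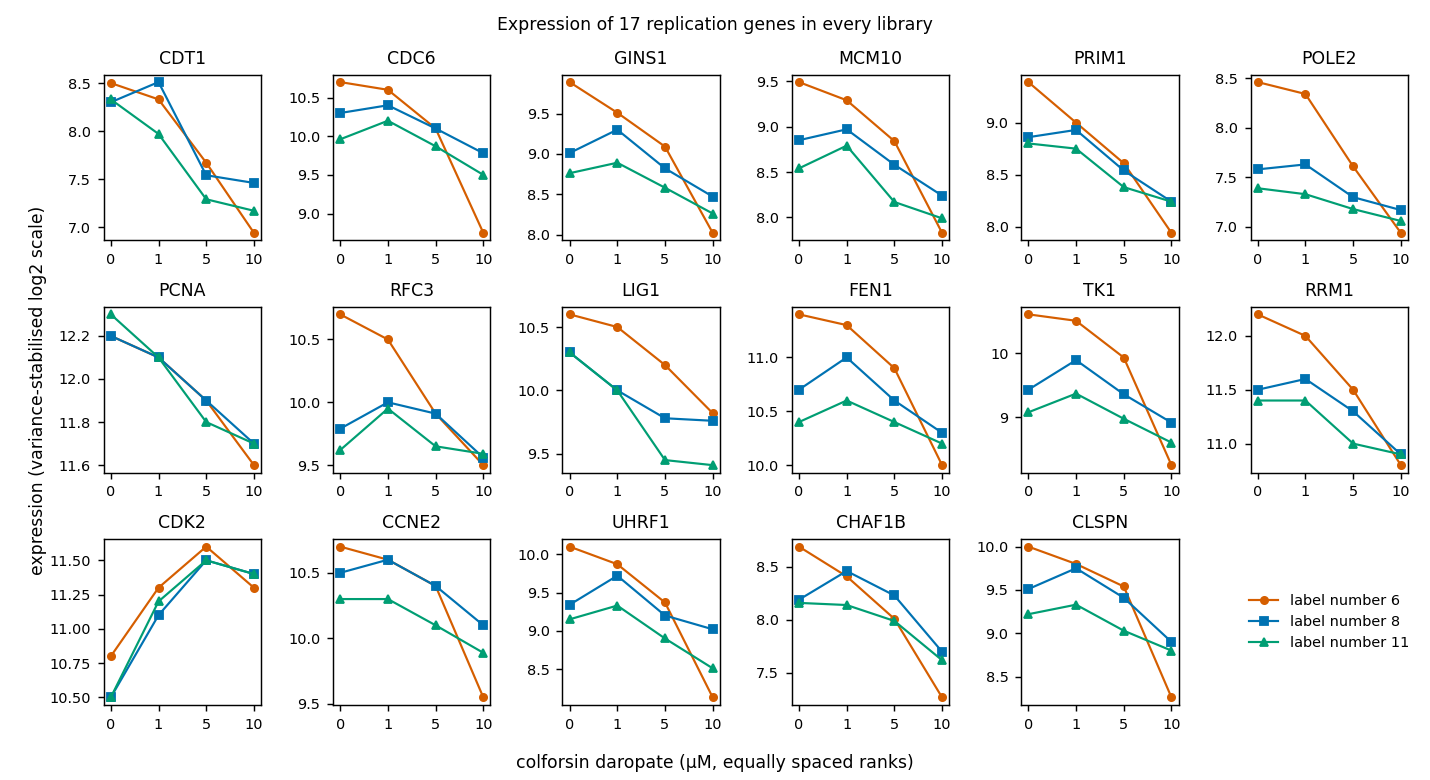
Expression (y axis, variance-stabilised log2 scale, a separate range per gene) of 17 members in all 12 libraries against dose (x axis, µM, equally spaced), with 1 line for each label number. The 3 PCNA lines nearly coincide between 12.3 and 11.6, the CDK2 lines rise from 10.5 to 10.8 up to 11.5 or 11.6 at 5 µM, and most number 6 lines start highest and end lowest.

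The count at 10 µM depended on how the label number was treated. With the number as a block, 44 members were lower and 1 higher (19.7% and 18.7% of tested genes), and POLA2, RPA1, RPA2, RRM2 and E2F2 did not pass. Without number 6, 27 members were lower and 2 higher (17.2% and 16.2% of tested genes), with a median difference of -0.40. All 27 were among the 32, and the 5 others were CDC45, POLD1, CCNE2, UHRF1 and CLSPN. RPA2 joined CDK2 among the higher genes (0.19, limma adjusted p = 0.0467). The 2 numbers left when number 6 was out, with the block, gave 36 lower and 1 higher (18.2% and 17.2%). Without 10 µM library 6 alone the number lower was 17 (8.22% of tested genes), without number 8 it was 5 (1.42%) and without number 11 it was 10 (2.78%).

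**Figure D4:**
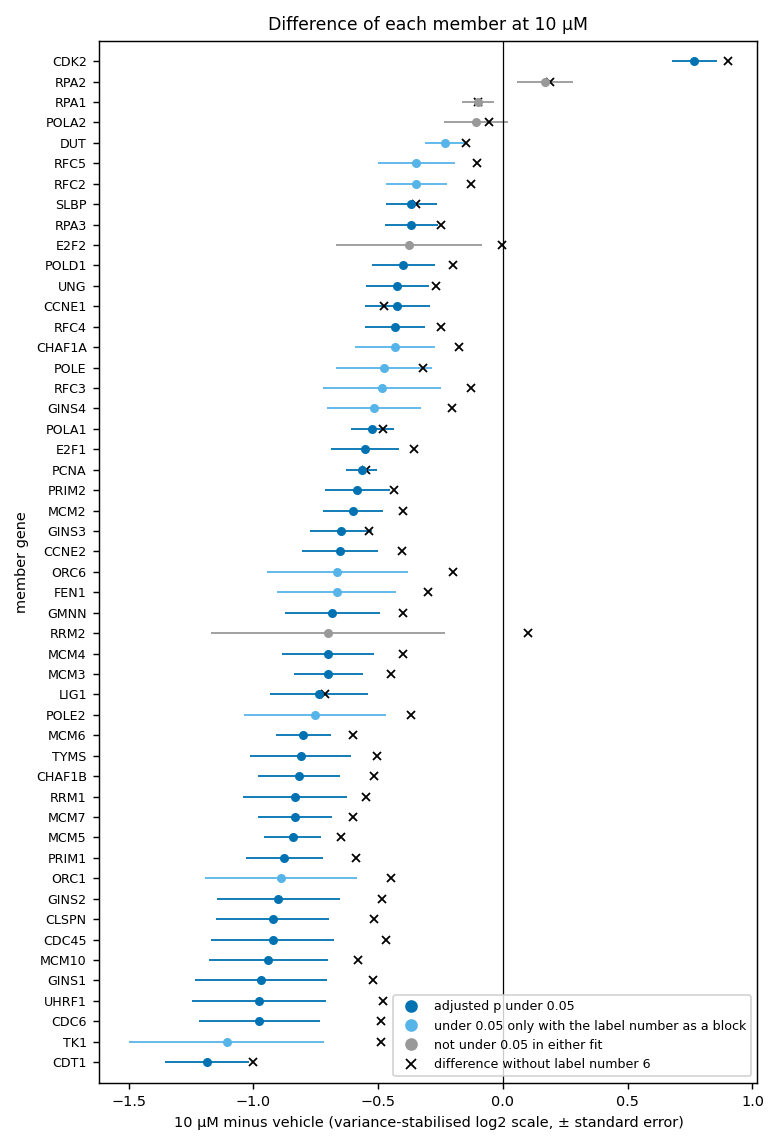
Difference between 10 µM and vehicle for each member (points, with bars of 1 standard error, x axis on the variance-stabilised log2 scale), sorted from the largest rise to the largest fall. Dark blue marks the 33 members with a limma adjusted p under 0.05, light blue the 12 that passed only with the label number as a block, grey the other 5, and crosses the difference without number 6, which lies closer to 0 for most members but close to the point for PCNA, LIG1 and SLBP.

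At 5 µM, 6 members fell (CDT1, MCM5, MCM6, POLA1, PRIM1 and PCNA) and CDK2 rose. Over all tested genes 7.44% were called lower and 7.67% higher, so the share of members called was close to the background, while the median difference was -0.27 against 0. Among these 6, CDT1 had the largest fall (-0.88 ± 0.17, limma adjusted p = 0.00513) and PCNA the smallest (-0.37 ± 0.06, 0.0029). With the block, 14 members were lower and 2 higher (15.3% of tested genes in either direction), and without 5 µM library 11 the number lower was 3 (5.44%). Without number 6, 9 were lower and 2 higher (13.8% and 14%), and with the block as well 15 and 3 (14.8% and 14.9%). RPA2 and CDK2 were the 2 higher with the block and without number 6, and RRM2 joined them with both. Every 5 µM library lay below every vehicle library for 14 members (14.3% of tested genes) and above for 1 (14.9%).

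At 1 µM no member fell and CDK2 alone rose (limma), against 0.613% and 1.18% of tested genes. The median difference was 0.07. At an unadjusted p under 0.05 the numbers were also 0 lower and 1 higher, and voom on the recovered reads gave the same counts. Within number 8, 40 members stood above their vehicle library at 1 µM (46.4% of tested genes), and within number 11, 31 did (43.9%). In number 6, 10 did (46.3%) and 35 stood below (46.0%). With the block (5.26% of tested genes lower, 6.76% higher) and without number 6 (5.48% and 6.75%), CDK2 stayed the 1 member called. In numbers 8 and 11 with the block, RFC5, RRM2, TK1 and CDK2 were called higher (7.99% of tested genes) and none lower (6.5%). From 1 to 10 µM, 24 members fell and 0 rose by limma and by voom, with 0 higher at an unadjusted p under 0.05 (2.54% and 2.17% of tested genes), with a median difference of -0.67, and 44 fell and none rose with the block (11.4% and 9.46%). Without number 6, 29 were lower and 1 higher (6.69% and 5.26%), and with the block as well 41 and 1 (8.35% and 6.23%). The 24 went to 7 without 1 µM library 6 (1.06% of tested genes) or without 10 µM library 6 (0.636%), to 4 without 1 µM library 8 (0.439%), to 10 without 1 µM library 11 (0.726%) and to 12 without 10 µM library 11 (1.64%).

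Most of the change in number 6 came in the last dose step. From 5 to 10 µM the median changes of numbers 6, 8 and 11 were -0.67, -0.24 and -0.19, with 47, 48 and 45 members lower, against 44.7%, 47.8% and 41.3% of tested genes. From 1 to 5 µM the medians were -0.40, -0.28 and -0.27. All 3 numbers thus went down over both of these steps. At the first step, from 0 to 1 µM, they differed in direction, with medians of -0.10, 0.11 and 0.10.

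Number 6 stood apart from the others at both ends of the dose range. With vehicle, library 6 was above both other libraries for 43 of 50 members (39.5% of tested genes), by a median of 0.42 over their mean. At 10 µM it was below both for 41 members (37.4% of tested genes), by a median of -0.26. The slope over dose rank differed among the label numbers for 26 members (limma F-test, 4.99% of tested genes), and in all 26 the slope of number 6 was the lowest of the 3. Median slopes per dose step were -0.38, -0.16 and -0.15 for numbers 6, 8 and 11. RRM2 had the smallest p of the members, with slopes of -0.74, 0.03 and 0.01 (limma adjusted p = 5.32e-06), and PCNA had slopes of -0.20, -0.17 and -0.21 (limma adjusted p = 0.868). The 26 went to 3 without vehicle library 6 (0.726% of tested genes), to 2 without 10 µM library 6 (2.29%), to 16 without vehicle library 8 or without 10 µM library 8 (2.9% and 2.94%), and to 13 without 10 µM library 11 (2.54%).

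The mean over doses differed among label numbers for 8 members (30.8% of tested genes). For most members number 6 was highest with vehicle and lowest at 10 µM, so this mean averages opposite differences. Between numbers 6 and 8, RPA2 and LIG1 were higher in number 6 (14.3% of tested genes) and SLBP was lower (14.2%). LIG1 was higher in number 6 than in number 8 by 0.32 ± 0.08 (limma adjusted p = 0.0146) and than in number 11 by 0.49 ± 0.08 (0.00109). Between numbers 6 and 11, 19 members were higher in number 6 (16.9% of tested genes) and SLBP was lower (18.2%). Between numbers 8 and 11 limma called no member and no tested gene (0%), with 3 members at an unadjusted p under 0.05. The 8 went to 34 without 10 µM library 6, while the share of tested genes was 29.6%. They went to 5 without any 1 of vehicle library 6 and the 1 and 5 µM libraries 8, to 4 without 1 µM library 11, and to 3 without the 1 or 5 µM libraries 6, vehicle library 11 or 5 µM library 11, with 20.5% to 28.4% of tested genes called in these settings.

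Mitosis genes, set beside the members because they mark another part of the cell cycle, separated the label numbers more widely. Their median over the doses was 11.2, 11.1, 10.5 and 9.40 for number 6. For number 8 it was 9.21, 9.94, 9.78 and 9.34, and for number 11 it was 8.82, 9.50, 9.25 and 9.12. Number 6 thus went down by a median of 1.94 across 29 genes at 10 µM, while numbers 8 and 11 stood 0.29 and 0.41 above vehicle. Over all libraries limma called 0 of the 29 at any dose against vehicle, with 0 at an unadjusted p under 0.05 and 0 by voom. At 10 µM 11.4% of tested genes were called lower and 11.2% higher. Slopes differed among numbers for 28 of the 29 (4.99% of tested genes). From 1 to 10 µM limma called 0 of the 29, and 7 lower with the block (11.4% of tested genes). In numbers 8 and 11 with the block, 15 were lower from 1 to 10 µM (8.35%). In numbers 8 and 11 alone, where 27 members were lower at 10 µM, limma called 7 mitosis genes higher, and 16 with the block (16.2% and 17.2% of tested genes). At 5 µM the same counts were 11 and 20 (14% and 14.9%), and at 1 µM 11 and 27 (6.75% and 7.99%). The part of this difference in the members' values was not tested.

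Of 68 other genes of replication and the G1/S transition, 20 fell at 10 µM and 2 rose, with a median difference of -0.33. With the block 38 fell and 6 rose (19.7% and 18.7% of tested genes). Without the block 11.4% of tested genes were called lower and 11.2% higher, and the genes named next were called in that fit. Those that fell included CDC7, a kinase that fires origins (-0.70 ± 0.13, limma adjusted p = 0.00258), TIMELESS of the fork protection complex (-0.60 ± 0.14, 0.00853) and DNMT1, the maintenance DNA methyltransferase (-0.73 ± 0.13, 0.00213). E2F7, a repressing E2F factor, fell by 1.40 ± 0.25 (limma adjusted p = 0.00236) and RRM2B, a p53-regulated ribonucleotide reductase subunit, by 0.70 ± 0.15 (0.00633). The 2 that rose were CDKN1C, a CDK inhibitor, by 2.24 ± 0.41 (limma adjusted p = 0.00264) and ASF1A, a histone chaperone, by 0.48 ± 0.07 (0.00102). CDKN1C was 8.99, 10.2, 10.9 and 11.3 in number 6, then 8.15, 8.87, 9.85 and 10.3 in number 8, then 8.15, 8.95, 9.99 and 10.4 in number 11, so it went up at each step in each number. These 7 were picked from the 22 called after their values were seen.

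Some members share exonic bases with another gene in GENCODE 29, and their values are less certain. The counting put reads it called ambiguous in a row of their own, 2.40% to 2.94% of reads over the libraries. Its strand setting is not stated, nor is how it treated overlap beyond that row. The shared exonic part was 22.7% of MCM2, 21.2% of GINS4, 35.1% of POLA2 (with a gene on the same strand), 39.2% of TYMS (with ENOSF1) and 37.1% of CCNE2 (with INTS8). For every other member the share with any single gene was below 15%.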

How the data were processed

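RNA from 12 libraries (4 groups of 3) was depleted of ribosomal RNA before library preparation, per the labels' protocols. The authors deposited variance-stabilised expression values on a log2-like scale. Per the submitters' processing notes, DESeq2 was used with genome build GRCh38 (hg38). The aligner, counting tool, annotation, strand setting and gene filter are not given in the sources used here. Columns were matched to libraries by name, and 0 columns of values without a sample were used. Of 21211 rows, 4 named no gene and were left out, and genes took 33.9% to 36.7% of reads. Symbols were found for 21166 genes. Deposited values are rounded to 0.01 below 10 and 0.1 from 10 up, and library medians were 8.21 to 8.29, so changes are relative to other genes and a change in total RNA is not visible.

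Depth was recovered from the steps that single reads make in the low values: 95.0% of 25562 low values lay within 0.006 of a whole-read step, against 42.7% with a wrong depth. Recovered counts served for depth, for folds and for 1 alternative test. Rounding of the deposited values carries over into them.

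The test was a limma linear model (limma 3.58.1, R 4.3.3, variance trend) with 4 dose groups, fitted to all 12 libraries. A gene entered if 3 or more libraries exceeded the floor by over 1 unit (17767 genes). Calls were made at a two-sided Benjamini-Hochberg adjusted p under 0.05 over all tested genes. Differences among label numbers were tested with limma F-tests, for the mean with dose group as a covariate, and for the slope over dose rank with 4 residual degrees of freedom. The script was tested on simulated data. The members and lists were chosen with earlier results of these data known, so no pattern here is independent support. Values in every library are given for the 2 members of each role with the largest difference at 10 µM, and for any called member running against the majority. Libraries of each number deviated together from their group means over tested genes (r of 0.316 to 0.777 for every same-number pair of libraries). Numbers 8 and 11 also deviated together (0.199 to 0.57), while number 6 went against both (-0.711 to -0.287). The 3 deviations within a group cancel for each gene, so these signs between numbers are partly fixed by the calculation. The numbers were taken to pair the libraries, and the fit with a block is given where it changes a named call or moves a count by over 1.5 times. Alternatives were the block, other filters, normalisations and weights, 2 groups only, recovered reads, and leaving out libraries or numbers. Figures used matplotlib 3.10.9, and tables Python 3.11.15.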

Additional observations from a re-analysis of the deposited data

Results flagged for a closer look

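For 26 members the slope over dose rank differed among the label numbers, against 4.99% of tested genes. This was the test of that difference itself (limma F-test, adjusted over all tested genes). In each of the 26, number 6 had the lowest slope. Among licensing genes the adjusted p was 0.00297 for ORC1, 0.00726 for ORC6, 0.0018 for CDC6, 0.0203 for GMNN, 0.00872 for MCM3, 0.00341 for MCM4 and 0.0373 for MCM6. Helicase activation genes gave 0.0292 for MCM10, 0.00304 for CDC45, 0.00289 for GINS1, 0.00169 for GINS2 and 0.0262 for GINS4. For the polymerase, primase and clamp loader genes it was 0.0398 for PRIM1, 0.00716 for POLE2, 0.00123 for RFC3, 0.0372 for RFC4 and 0.0124 for RFC5. FEN1 had 0.00167, RRM1 0.00659, RRM2 5.32e-06, TYMS 0.00903 and TK1 0.00127. CHAF1A had 0.0207, CHAF1B 0.0295, UHRF1 0.0021 and CLSPN 0.0169. The calls rest mainly on number 6: without vehicle library 6 there were 3, and without 10 µM library 6 there were 2. The shares of tested genes there were 0.726% and 2.29%.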

How the results depend on the processing

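With label numbers as a replicate block, the members lower were 44 at 10 µM, 14 at 5 µM and 44 from 1 to 10 µM. The shares of tested genes were 19.7%, 15.3% and 11.4%. At 5 µM 2 members were higher (15.3%). Beside the calls named with the block in the report, the block ended no call of the named members. With array weights 13 were lower at 5 µM and 40 from 1 to 10 µM (21.5% and 8.31% of tested genes). Higher were 2, 3, 5 and 1 at 10, 5 and 1 µM and from 1 to 10 µM (20.4%, 21.6%, 15.1% and 7.24%). In that setting 19 differed among label numbers and 11 in slope (32% and 3.47%). With 2 groups only, 18 were lower at 10 µM and 7 from 1 to 10 µM (7.19% and 0.85% of tested genes). At 1 µM 0 were higher (0.163%). Without number 6 but with the block, 15 were lower at 5 µM and 41 from 1 to 10 µM (14.8% and 8.35%). Higher there were 3, 4 and 1 at 5 µM, at 1 µM and from 1 to 10 µM (14.9%, 7.99% and 6.23%).

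Leaving out single libraries gave 17 to 34 lower at 10 µM, 3 to 6 at 5 µM and 4 to 17 from 1 to 10 µM. The shares of tested genes called lower were 8.05% to 12.4%, 4.28% to 8.8% and 0.439% to 1.64%. Leaving out all of 1 number gave 5 to 27, 0 to 9 and 0 to 29 lower. Here the shares of tested genes were 1.42% to 17.2%, 0.315% to 13.8% and 0% to 6.69%, smallest without number 8 or 11. The lowest counts on leaving out a number were those without number 8 or 11, where CDC6, GINS1, MCM10, LIG1, RRM1, CCNE2, UHRF1 and CHAF1B lost their calls, as did PRIM1 and CLSPN without number 8. The number higher was 1 to 2 at 10 µM, 1 to 2 at 5 µM, 0 to 1 at 1 µM and 0 to 1 from 1 to 10 µM. The shares of tested genes called higher were 1.95% to 16.2%, 0.456% to 14%, 0.0113% to 6.75% and 0% to 5.26%. The median difference at 1 µM went from -0.0833 to 0.21, so its sign was not stable. Members called among label numbers ran from 3 to 34 and in slope from 2 to 26, in leave-outs chosen after seeing the data. The shares of tested genes called in those leave-outs were 20.5% to 29.6% and 0.726% to 4.4%. CDT1, PCNA and CDK2 kept their calls at 10 µM under all 18 alternatives, and no called direction of a named member turned. The cause of these changes was not tested.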
